A study of Mus musculus with 6 samples.

Results

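Glycolysis, pyruvate and hypoxia genes were followed in long-term haematopoietic stem cells (LT-HSC) of control mice and mice with a conditional knockout of Prdm16. The set is 43 listed genes, chosen by their place in the pathway and found by mouse gene ID among the 27179 genes of the deposited table. It covers the glucose and lactate carriers, the enzymes from hexokinase to lactate dehydrogenase, the pyruvate dehydrogenase complex and its kinases, the oxygen sensors with their HIF transcription factors, and 5 genes induced by low oxygen. Of the 43 genes, 42 passed the filter on low values (at least 1 CPM, a read count scaled to library depth, in at least 3 of the 6 libraries), and Epas1 did not.

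Glycolysis splits glucose into pyruvate in the cytosol. Lactate dehydrogenase turns pyruvate into lactate, and pyruvate dehydrogenase passes it to the mitochondria unless pyruvate dehydrogenase kinases switch that complex off. When oxygen falls, prolyl hydroxylases stop marking HIF proteins for destruction by the VHL ubiquitin ligase, and HIF raises the transcription of many glycolytic genes. Quiescent stem cells of the bone marrow are known for a glycolytic metabolism and for HIF activity.

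All mice were C57BL/6 adults of 8 to 12 weeks, homozygous for a conditional allele of Prdm16, which encodes a zinc-finger transcriptional regulator. The control group (Prdm16-Mx1-Cko/Cko; +/+) had no Mx1-Cre transgene, and the knockout group (Prdm16-Mx1-Cko/Cko; Tg/+) carried it. Every animal received 5 pIpC injections on alternate days. pIpC is a double-stranded RNA that evokes interferon and so turns on the Mx1 promoter, which is not restricted to stem cells. The cells were sorted 5 weeks later by the Lin- Sca-1+ c-Kit+ CD48- CD150+ phenotype. Each genotype's sort used bone marrow combined from 5 mice, and the 3 libraries of a group are technical portions of that pool. Errors and p-values therefore measure the spread between portions and not between animals, and the presence of Cre differs between the groups as well as the loss of Prdm16.

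Library totals ran from 36747729 to 43743795 reads. The targeted gene Prdm16, on chromosome 4 (154316122 to 154637360, build mm10, as for all positions here), gave 1630, 1860 and 1381 reads in control replicates 1 to 3. It gave 323, 388 and 643 reads in knockout replicates 1 to 3 and was lower in each. The log2 difference was -1.93 (limma, adjusted p = 0.00829, but 0.065 without knockout replicate 2 and 0.0967 without the mean-variance trend). The source of the reads left in knockout was not tested. The 14 LT-HSC sort and marker genes gave summed levels of 2604 to 2659 CPM in control and 2612 to 2772 CPM in knockout. Kit, Ly6a, Slamf1 and Procr were detected in every library. Kit alone measured 914 to 1027 CPM in control and 748 to 948 CPM in knockout. The sum also includes Flt3 and Cd48, described below. It includes Cd34 as well, which was not part of the sort phenotype (365 to 401 CPM in control, 400 to 429 CPM in knockout). Of these 14 genes 6 had groups that did not overlap (42.9%, against 16.5% of all genes tested), all higher in knockout, and 0 were called. They were Ly6a, Hoxb5, Mecom, Mllt3, Ctnnal1 and Flt3. Flt3, a marker of later progenitors, measured 29.9 ± 2.71 against 50.8 ± 7.15 CPM (SD over 3 libraries). Mecom measured 146 ± 7.38 against 198 ± 22.0 CPM. Cd48, against which the cells were sorted, overlapped (10.7, 5.29 and 3.88 CPM in control, 17.7, 13.6 and 5.68 CPM in knockout). Summed markers of several other blood cell types were higher in knockout, though not each marker. Among the neutrophil markers 14 had positive values and Cxcr2 a negative one (log2 difference -2.42, groups overlapping). Of the 14, Prtn3 (log2 difference 0.01) and Fcnb overlapped too. All 8 eosinophil markers had positive values, but Siglecf and Ccr3 overlapped. In the B cell list 5 tested markers had positive values, while Cd79b was lower in knockout (61.0 ± 2.86 against 45.6 ± 5.72 CPM). The 15 neutrophil markers summed to 306 to 322 CPM in control and 1130 to 1324 CPM in knockout, with 10 called higher and 0 called lower. Prtn3 made up most of the control sum (201 to 214 CPM in control, 197 to 218 CPM in knockout). The 8 eosinophil markers summed to 0.624 to 6.37 against 553 to 652 CPM (6 called of 8 tested). The 11 monocyte and macrophage markers summed to 578 to 595 against 826 to 946 CPM (3 called of 9 tested). Lyz2 made up most of these sums (550 to 572 against 711 to 806 CPM), and Cd68 and Vcam1 overlapped. The 8 basophil and mast cell markers summed to 12.9 to 18.0 against 90.1 to 99.9 CPM (2 called of 4 tested). Cpa3, which overlapped, made up most of the control sum (11.9 to 13.8 CPM in control, 10.4 to 15.4 CPM in knockout). In the last list Gzmb, Cma1 and Tpsb2 had 0 reads in all 6 libraries. The 9 B and plasma cell markers summed to 59.1 to 66.1 against 232 to 248 CPM (1 called of 6 tested). The 10 megakaryocyte markers summed to 1612 to 1796 against 2127 to 2342 CPM (2 called of 9 tested). The 9 erythroid markers summed to 57.5 to 79.7 against 99.2 to 106 CPM (0 called of 7 tested). The 8 stromal markers summed to 22.4 to 24.8 against 35.7 to 45.6 CPM (1 called of 4 tested). Sums of the 8 endothelial markers overlapped between the groups (303 to 392 against 357 to 414 CPM, 0 called of 6 tested). Within them Stab2 did not overlap (3.07, 0 and 2.45 CPM in control, 19.6, 8.99 and 13.9 CPM in knockout). Sums of the 9 T and NK cell markers overlapped too (74.8 to 102 against 92.4 to 114 CPM, 0 called of 3 tested). Most of that sum was Nkg7 (73.7 to 89.7 against 87.8 to 105 CPM), and the T cell genes Cd3e and Cd8a were at 0 reads throughout. The 10 immediate early genes, which respond to handling, summed to 2975 to 3445 CPM in control and 1674 to 1704 CPM in knockout (8 called lower of 9 tested). The part of these cell types and of handling in the values below was not tested.

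None of the 42 tested members passed the test for a difference between knockout and control, in either direction (limma on the deposited log2 values, Benjamini-Hochberg adjusted p below 0.05 over 13018 genes). Over all genes tested 0.699% passed, 0.407% higher and 0.292% lower in knockout. The smallest adjusted p of a member was 0.283, for Ldhb. At an unadjusted p under 0.05 there were 5 members, 3 higher (Ldha, Hk2 and Slc16a3) and 2 lower (Ldhb and Aldoa), which is 11.9% of the members against 10.3% of all genes. The knockout and control libraries did not overlap for 7 members, 4 higher and 3 lower, or 16.7% of the members against 16.5% of all genes tested (8.52% higher and 8.01% lower). A count of 0 also came from voom, the count-based weighting in limma, on the recovered reads. In bulk samples fewer cells of a type and less RNA per cell cannot be told apart, and this holds for each level below.

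Over the technical portions, the differences were bounded closely for most members. The intervals hold no spread between animals. The median log2 difference was -0.012 for the members and 0.003 for all genes tested, and 19 of 42 members had a positive value (45.2%, against 50.5% of all genes). The 95% interval of the difference lay within 2-fold in both directions for 35 of 42 members (83.3%), compared with 70.1% of all genes tested, and within 1.5-fold for 27. The 7 members whose intervals reached beyond 2-fold were Slc16a3, Pfkfb4, Eno2, Pdk4, Egln3, Ankrd37 and Ddit4. Their group means ran from 1.31 CPM (Pdk4 in knockout) to 18.2 CPM (Egln3 in control).

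**Figure D1:**
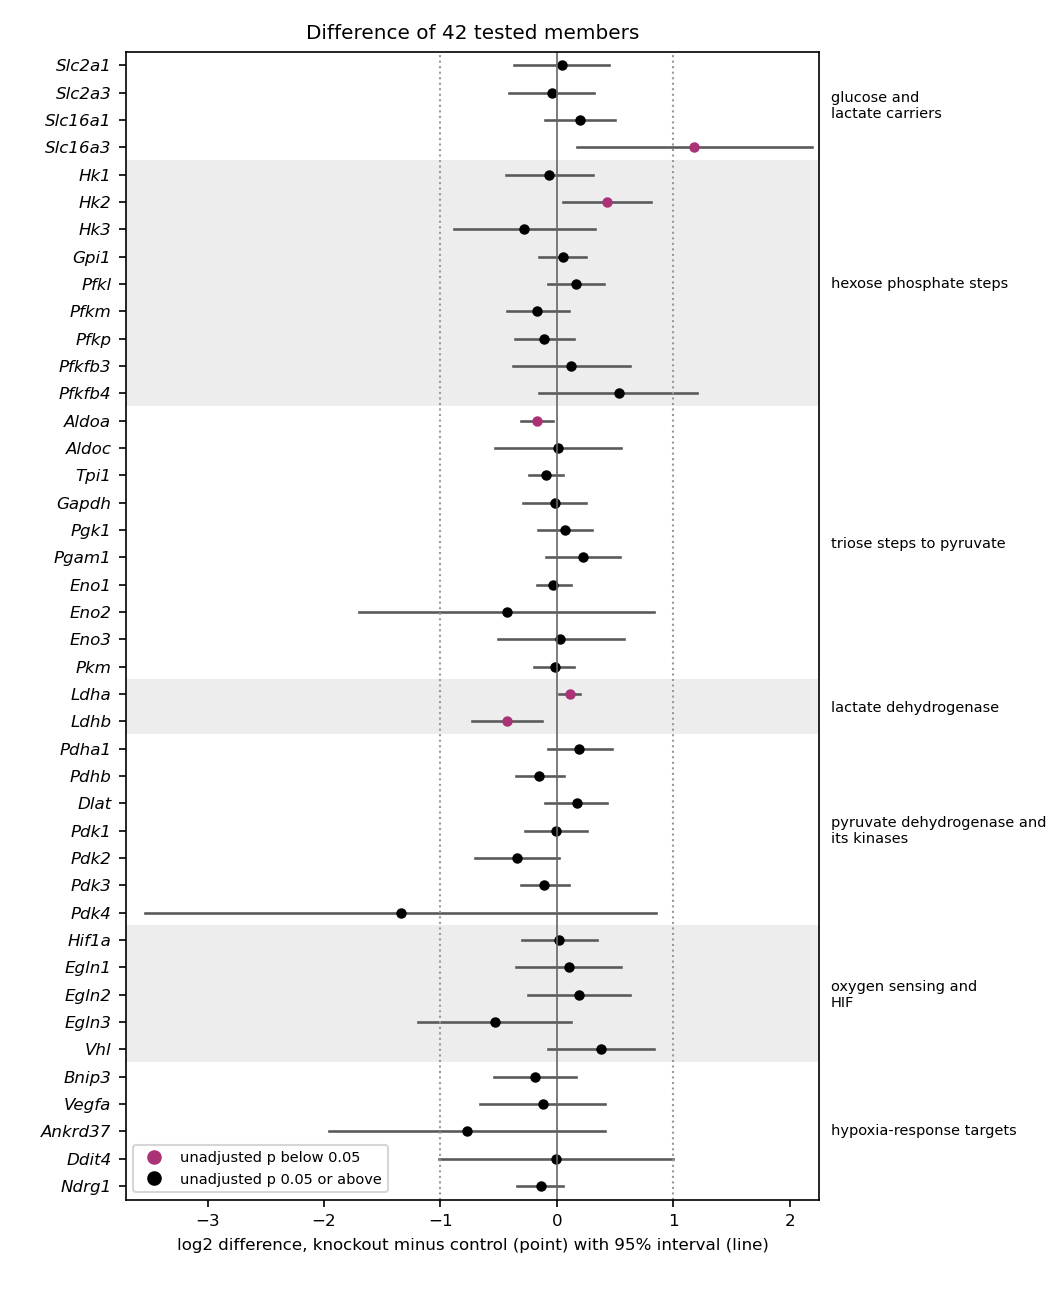
Log2 difference (knockout minus control) of the 42 tested members on the horizontal axis, grouped by role; points are fitted differences, lines their 95% intervals from 3 libraries per group, and dotted lines mark 2-fold. Intervals of 35 members stay between the dotted lines, and Slc16a3 and Pdk4 have the most positive (1.18) and the most negative (-1.34) estimates. The intervals cover the spread between technical portions of a pool and not between animals.

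The members differed widely in level. Levels of different genes are compared here as CPM per kilobase of exon, with exon lengths from GENCODE M21. Ldha, the lactate dehydrogenase subunit known for making lactate, stood first with a mean of 929.7 CPM per kilobase over the 6 libraries (range 887 to 989). Aldoa, the main aldolase outside liver and brain, followed at 387 (354 to 430), and its range lay above those of Tpi1, triose phosphate isomerase (297 to 343), and Pkm, pyruvate kinase (289.8 to 343). The ranges of Tpi1 and Pkm overlapped. Gpi1, glucose phosphate isomerase (144 to 177), and Eno1, enolase (139 to 147), came next and overlapped as well. At the other end were Ddit4, an inhibitor of mTOR signalling, at 2.10, Eno2 at 1.55, Slc16a3 at 1.38, Pdk4 at 0.737 and Epas1 at 0.186 CPM per kilobase.

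**Figure D2:**
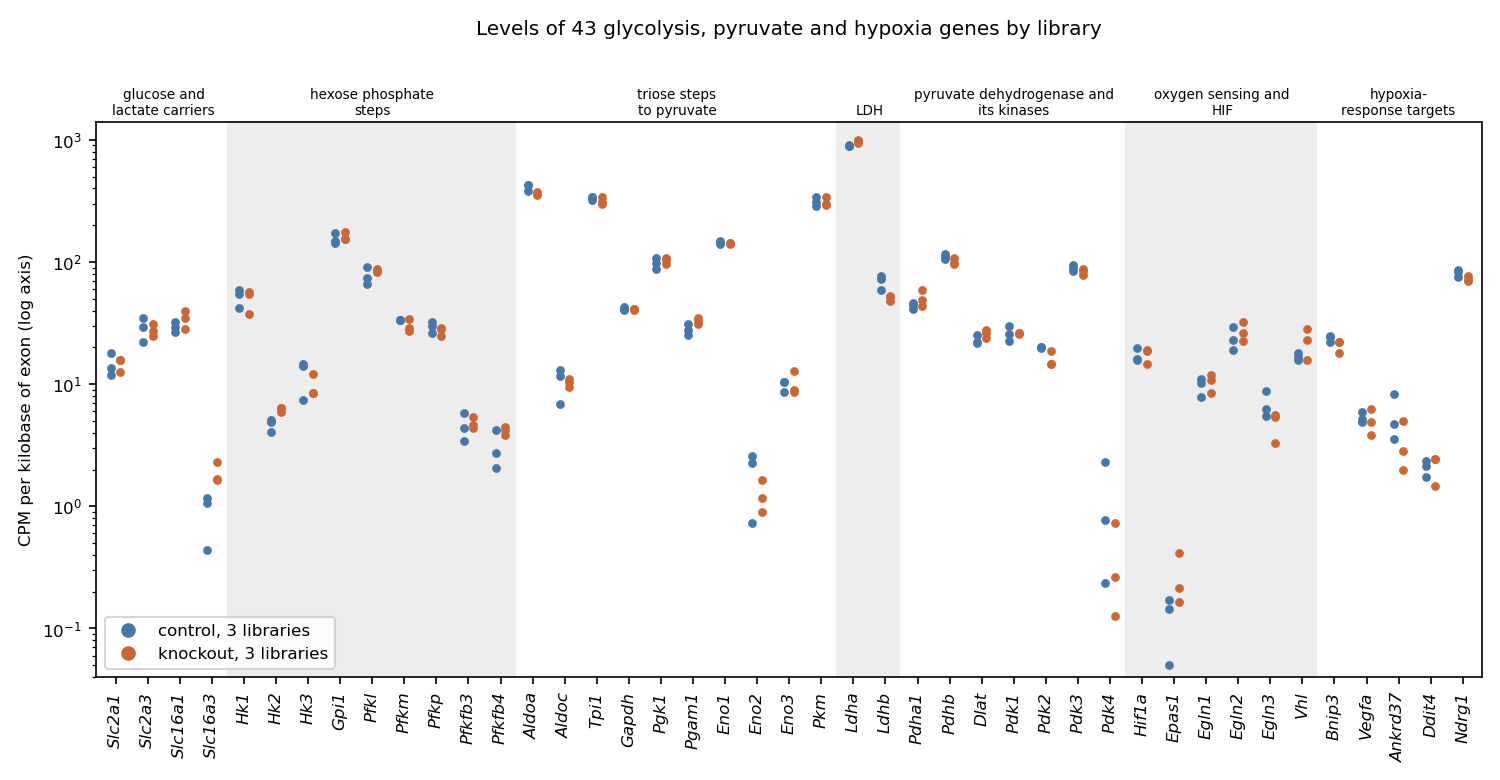
CPM per kilobase of exon (log axis) of the 43 members in each of 3 control and 3 knockout libraries, ordered by role; each point is a library, and the library of Epas1 with 0 reads is drawn at 0.05. Points of the groups overlap for all tested members but 7, while levels between members run from 0.186 (Epas1) to 929.7 (Ldha).

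Some of these levels are uncertain because the transcripts resemble other genes. In GENCODE M21, 58.4% of the 50-base windows of Gapdh protein-coding transcripts also occur in other annotated genes, 209 of them pseudogenes. Gapdh, glyceraldehyde phosphate dehydrogenase, measured 41.2 CPM per kilobase and ranked 15 of 43, under Tpi1 at 325.9 and Pgk1 at 100.1 on its neighbouring steps. The same share was 68.0% for Pgk1, phosphoglycerate kinase, 59.1% for Bnip3, 49.5% for Eno1 and 41.5% for Pgam1, phosphoglycerate mutase. Smaller shares were 30.3% for Pdhb, 24.5% for Gpi1 and 23.7% for Pkm. For Eno1b, a near-identical copy of Eno1 that was counted apart from it, the share was 85.2%. How reads that match several places were counted is not given in the sources used here, so the levels of these genes, and their split from their copies, are uncertain.

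Lactate dehydrogenase held the members with the smallest p-values, and its subunits differed in opposite directions. Ldha (chromosome 7, 46842274 to 46855627) measured 1680, 1719.7 and 1682.7 CPM in control and 1773, 1841 and 1874 CPM in knockout. All knockout libraries were above all control libraries, by a log2 difference of 0.11 (95% interval 0.02 to 0.20, adjusted p = 0.36). Ldhb (chromosome 6, 142490249 to 142507957), the subunit known for turning lactate back into pyruvate, measured 94.5, 77.2 and 99.3 CPM in control. In knockout it measured 62.6, 68.0 and 69.3 CPM, each below every control library. Its log2 difference was -0.43 (95% interval -0.73 to -0.13, adjusted p = 0.283), and neither subunit passed the test. As a share of lactate dehydrogenase level per kilobase, Ldhb made up 7.56%, 6.12% and 7.90% in control and 4.88%, 5.09% and 5.10% in knockout, or 7.19 ± 0.94% and 5.03 ± 0.12% (SD, n = 3). Reads of Ldha and Ldhb can be shared with pseudogenes, which hold 10.4% and 21.0% of their 50-base windows. The adjusted p of Ldhb ranged from 0.215 to 0.548 over 16 alternative analyses.

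The sequences before the start sites of these subunits are shown because they share a reaction and differed in opposite directions, with Slc16a3 added as the member with the largest positive difference. Each is given 5′ to 3′ for the 250 bases before a start listed by RefSeq (GRCm38.p6). Capitals mark ACGTG and GCGTG, the cores of the hypoxia response element to which HIF binds, and their reverse complements CACGT and CACGC. Where ACGTG and CACGT overlap to CACGTG they also form an E-box, the site of MYC-type factors. Both windows listed for Ldha are shown.
Ldha window 1, chr7:46845554-46845803, plus strand: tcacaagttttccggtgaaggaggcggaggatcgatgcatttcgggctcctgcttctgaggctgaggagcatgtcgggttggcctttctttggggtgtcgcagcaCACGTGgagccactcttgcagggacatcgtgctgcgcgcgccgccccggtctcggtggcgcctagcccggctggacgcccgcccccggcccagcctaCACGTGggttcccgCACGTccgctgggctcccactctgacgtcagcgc
Ldha window 2, chr7:46846832-46847081, plus strand: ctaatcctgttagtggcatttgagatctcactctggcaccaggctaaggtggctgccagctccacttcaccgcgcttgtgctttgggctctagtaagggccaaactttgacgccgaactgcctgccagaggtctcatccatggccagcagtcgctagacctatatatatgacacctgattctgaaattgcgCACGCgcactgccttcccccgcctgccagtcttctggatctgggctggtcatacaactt
Ldhb, chr6:142507958-142508207, minus strand: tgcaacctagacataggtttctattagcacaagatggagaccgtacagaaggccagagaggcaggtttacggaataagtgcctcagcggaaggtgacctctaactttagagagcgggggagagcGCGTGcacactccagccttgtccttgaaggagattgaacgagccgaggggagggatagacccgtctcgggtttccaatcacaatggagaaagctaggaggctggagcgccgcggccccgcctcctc
Slc16a3, chr11:120948817-120949066, plus strand: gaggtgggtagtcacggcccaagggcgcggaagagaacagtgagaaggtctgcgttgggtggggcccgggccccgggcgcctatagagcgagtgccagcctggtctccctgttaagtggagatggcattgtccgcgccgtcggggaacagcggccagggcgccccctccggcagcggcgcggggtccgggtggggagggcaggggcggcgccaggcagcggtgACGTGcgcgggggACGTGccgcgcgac

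Every window printed above held at least 1 core. Of the windows searched but not printed, that of Fbp1 and window 1 of Aldoa held 0 cores. Hk2 held 2, and the overlapping windows 2 and 3 of Aldoa held 1 each. Window 1 of Ldha held CACGTG beginning 145 and 48 bases before the start and CACGT beginning 34 bases before it, and window 2 held CACGC at 59 bases. The start of window 2 matched 1 GENCODE M21 transcript of Ldha and that of window 1 matched 0. Ldhb held GCGTG beginning 126 bases before its start, and Slc16a3 held ACGTG at 27 and 14 bases. Promoter windows were found for 40 members, and not for Slc2a3, Epas1 and Ndrg1. ACGTG on either strand was present in 26 of the 56 windows of these members (46.4%), in 21.6% of the windows of all genes tested and in 16.6% of all 32851 windows of the same length. GCGTG on either strand was in 55.4% of member windows, 44.0% of those of genes tested and 28.2% of all windows. Since the members were listed as glycolytic and hypoxia genes, this share describes the list, and a match is not evidence of binding.

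**Figure D3:**
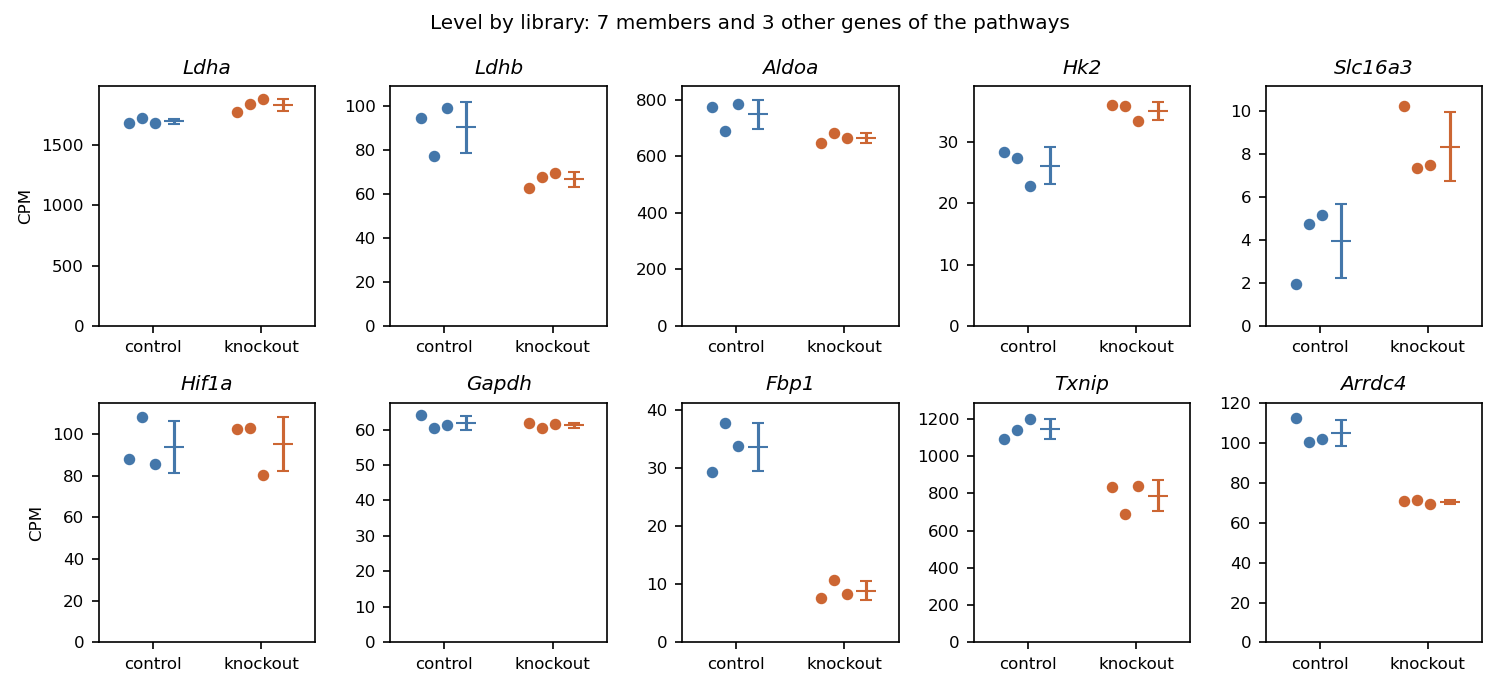
CPM by library (points; vertical axes start at 0) with the mean and SD of 3 libraries beside them, for 7 members and for Fbp1, Txnip and Arrdc4 of the same pathways. Knockout points lie above control for Ldha, Hk2 and Slc16a3 and below for Ldhb and Aldoa, and Fbp1 shows the widest gap, with control libraries at 29.4 to 37.7 and knockout libraries at 7.58 to 10.7.

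Among the 4 carriers, only Slc16a3 had groups that did not overlap. It encodes MCT4, a lactate exporter of glycolytic cells. It measured 1.95, 4.72 and 5.16 CPM in control and 10.2, 7.31 and 7.48 CPM in knockout. The groups did not overlap, and the log2 difference was 1.18 (95% interval 0.17 to 2.19, adjusted p = 0.396). The difference was 0.74 without control replicate 1. Summed neutrophil and macrophage markers were higher in the same 3 libraries (values above), and their part in this difference was not tested. Slc16a1, which encodes the broadly expressed carrier MCT1, measured 131, 119 and 142 CPM in control and 174, 125 and 155 CPM in knockout, with overlapping groups. Slc2a1 and Slc2a3 encode the glucose carriers GLUT1 and GLUT3. Slc2a1 measured 58.2, 38.9 and 44.0 CPM in control and 51.0, 51.3 and 41.3 CPM in knockout, and Slc2a3 114 ± 24.7 and 109.7 ± 12.6 CPM (SD, n = 3). Slc2a3 made up 66.6 ± 4.96% of their summed level per kilobase in control and 65.4 ± 1.72% in knockout.

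Hexokinases trap glucose in the cell as its phosphate. Hk1 made up 75.4 ± 6.54% of hexokinase level per kilobase in control and 75.5 ± 3.84% in knockout. Hk2, the form known to be induced by growth signals and HIF (chromosome 6, 82725025 to 82774454), measured 28.4, 27.3 and 22.8 CPM in control and 36.0, 36.0 and 33.5 CPM in knockout. Each knockout library was above each control library, with a log2 difference of 0.43 (95% interval 0.05 to 0.81, adjusted p = 0.419). Its share of hexokinase per kilobase was 6.91 ± 1.51% in control and 9.76 ± 2.09% in knockout, and the lowest knockout share (8.55%) was just above the highest control share (8.24%). Hk3, the hexokinase of myeloid cells, measured 47.6, 25.1 and 48.7 CPM in control and 40.4, 28.5 and 28.3 CPM in knockout (log2 difference -0.28, adjusted p = 0.766). No knockout library exceeded the highest control library.

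The next steps include phosphofructokinase, a known control point of the rate of glycolysis. Pfkl supplied 54.8 ± 3.64% of phosphofructokinase level per kilobase in control and 59.8 ± 1.15% in knockout, with Pfkm at 24.2% and 21.1% and Pfkp at 21.1% and 19.1%. Log2 differences of Gpi1 and the 3 phosphofructokinases lay between -0.17 and 0.16, with every interval inside 1.5-fold. Pfkfb3 and Pfkfb4 make the sugar phosphate that activates phosphofructokinase. Pfkfb3 had a log2 difference of 0.12 (adjusted p = 0.897). Pfkfb4 measured 7.23, 9.49 and 14.7 CPM in control and 15.4, 14.7 and 13.3 CPM in knockout, and its interval (-0.15 to 1.20) reached beyond 2-fold.

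The steps from aldolase to pyruvate were the most tightly bounded over the technical portions, with 9 of 10 intervals inside 1.5-fold. Aldoa (chromosome 7, 126795234 to 126800994) measured 772, 689.9 and 784 CPM in control and 646, 683 and 663 CPM in knockout. The groups did not overlap, and the log2 difference was -0.17 (95% interval -0.31 to -0.03, adjusted p = 0.381). Pgam1 measured 49.6, 45.2 and 54.9 CPM in control and 55.2, 58.2 and 61.3 CPM in knockout, so that its groups were apart by a narrow margin (log2 difference 0.22, adjusted p = 0.609). Tpi1 and Pgk1 had log2 differences of -0.09 and 0.07. Eno1 and Pkm had log2 differences of -0.03 and -0.02, and Pkm, whose M1 and M2 forms a gene total does not separate, measured 753 to 891 CPM over all libraries. Gapdh, often used as a reference gene, ranged only from 60.4 to 64.2 CPM, though its level is uncertain because of the shared windows. Aldoa and Eno1 made up nearly the whole of their families, at 97.5 ± 0.62% and 92.5 ± 1.27% per kilobase in control and 97.3 ± 0.26% and 92.5 ± 1.21% in knockout. Aldoc and Eno3, the minor forms known from brain and muscle, had differences of 0.01 and 0.03. Eno2, the enolase typical of neurons, had an interval of -1.70 to 0.83 and was not well measured at 2.03 to 7.28 CPM.

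**Figure D4:**
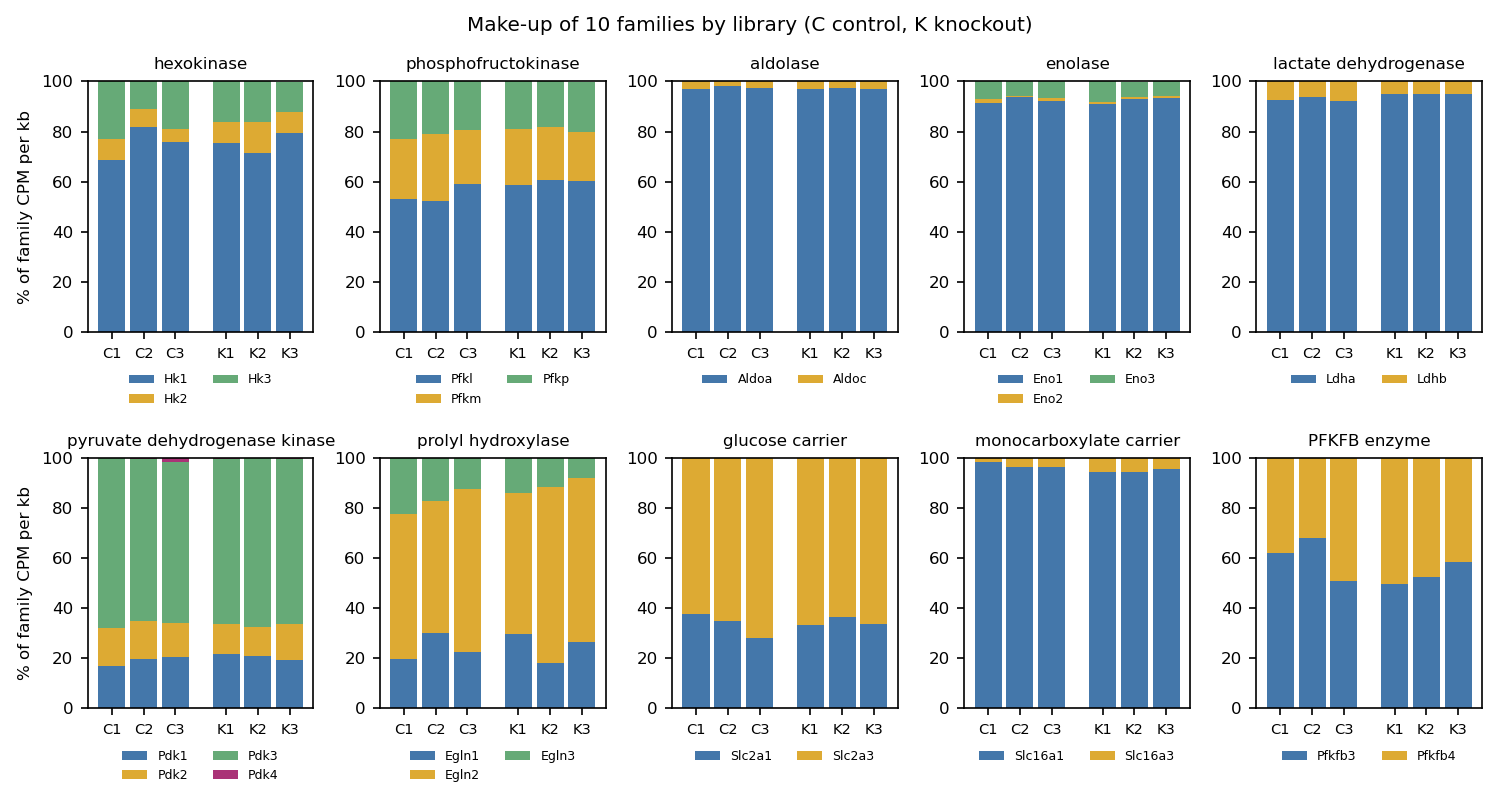
Share of each isoenzyme or related carrier in its family's CPM per kilobase (vertical axis, percent) in control libraries C1 to C3 and knockout libraries K1 to K3, for 10 families. The leading gene of each family but PFKFB is the same in all 6 libraries, and Ldhb averages 7.19% of lactate dehydrogenase in control and 5.03% in knockout.

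Pyruvate dehydrogenase was represented by its E1 subunits Pdha1 and Pdhb and by Dlat, its acetyltransferase. Their log2 differences were 0.19, -0.15 and 0.17, with every interval inside 1.5-fold. Of the kinases that switch the complex off, Pdk3 made up 65.5 ± 1.86% of the summed level per kilobase in control and 66.3 ± 0.85% in knockout, ahead of Pdk1 at 19.1% and 20.7%. Pdk2 (chromosome 11, 95026258 to 95041371) measured 45.4, 45.1 and 44.8 CPM in control and 32.7, 32.7 and 42.4 CPM in knockout, the groups not overlapping (log2 difference -0.34, adjusted p = 0.507). Pdk1, a HIF target, measured 118 to 156 CPM in control and 133 to 136 CPM in knockout. Pdk4, which fasting and fatty acids induce, measured 0.817, 2.69 and 7.98 CPM in control and 0.920, 0.443 and 2.56 CPM in knockout, and its 6 libraries spanned 18.0-fold, with overlapping groups. Its log2 difference of -1.34 ran from -2.17 without control replicate 1 to -0.54 without control replicate 3.

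The groups overlapped for all 5 tested genes of oxygen sensing and HIF. Hif1a (chromosome 12, 73901324 to 73947554) measured 88.1, 108 and 85.6 CPM in control and 102, 103 and 80.3 CPM in knockout, a log2 difference of 0.02 with an interval of -0.30 to 0.34. Epas1, which encodes HIF-2alpha, had 0, 35 and 35 reads in control and 85, 39 and 52 reads in knockout, at most 2.30 CPM, and was not tested. Egln2 led the prolyl hydroxylases at 58.7 ± 6.43% per kilobase in control and 63.9 ± 7.02% in knockout. Egln1, the main oxygen sensor of many tissues, had a log2 difference of 0.10 and Egln2 of 0.19. Egln3, itself a HIF target, measured 23.4, 16.5 and 14.7 CPM in control and 14.9, 14.3 and 8.77 CPM in knockout, which overlapped (log2 difference -0.53, interval -1.19 to 0.12, or -0.29 without knockout replicate 3). Vhl measured 44.3 to 49.8 CPM in control and 78.8, 43.9 and 64.8 CPM in knockout (0.38, interval -0.08 to 0.83, or 0.19 without knockout replicate 1 and 0.61 without knockout replicate 2).

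All 5 hypoxia-response targets had negative values, from -0.77 to -0.01 with a median of -0.141, and 0 of 5 had an unadjusted p under 0.05 or groups that did not overlap. The signs of 2 of them were not stable: Vegfa was 0.05 without knockout replicate 1, and Ddit4 reached 0.23 without knockout replicate 2. Ndrg1, a stress-response gene, had the highest level per kilobase of these 5, and measured 216, 240 and 247 CPM in control and 224, 212 and 201 CPM in knockout (log2 difference -0.14, adjusted p = 0.609). Bnip3, a mitophagy receptor, had a difference of -0.19 and Vegfa, the vascular growth factor, of -0.12. Ankrd37 measured 7.72, 4.39 and 3.30 CPM in control and 1.84, 2.63 and 4.62 CPM in knockout, overlapping despite its difference of -0.77 (-0.43 without control replicate 1). Ddit4 lay at 2.59 to 4.27 CPM in all libraries. In a longer list of 36 other hypoxia-response genes, 29 were tested, 13 had positive values, the median was -0.052 and 0 were called. The smallest p there belonged to Plod1, a collagen-modifying enzyme, at 26.5 ± 9.88 CPM in control and 15.5 ± 5.12 CPM in knockout, with overlapping libraries (log2 difference -0.77, or -0.48 without control replicate 1, adjusted p = 0.438), followed by Pgm2 (0.32) and Pgm1 (-0.23), both phosphoglucomutases.

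Other genes of the pathways gave 2 calls, both lower in knockout, among 95 tested of 113 listed (limma, adjusted p below 0.05, against 0.292% of all genes lower). The groups did not overlap for 16 of the 95 (16.8%), against 16.5% of all genes. Fbp1, fructose bisphosphatase, which runs the phosphofructokinase step backwards for gluconeogenesis, fell most. It measured 29.4, 37.7 and 33.8 CPM in control and 7.58, 10.7 and 8.33 CPM in knockout (chromosome 13, 62864753 to 62888298). The log2 difference was -1.93 (SE 0.23, 95% interval -2.45 to -1.41, adjusted p = 0.00329), a level 3.81-fold higher in control. The call held in 16 of 16 alternatives, with adjusted p of 0.00121 to 0.0281. In the same list of 30 glycolytic and sugar-handling genes, 22 were tested and 8 had positive values. Ldhd, the mitochondrial D-lactate dehydrogenase, measured 12.5, 11.7 and 12.1 CPM in control and 4.41, 6.73 and 8.17 CPM in knockout (-0.96, adjusted p = 0.313). G6pc3, a glucose phosphatase, had a difference of -0.23.

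The other called gene was Txnip, an arrestin-like protein that limits glucose uptake through GLUT1 and binds thioredoxin. It measured 1092, 1139 and 1200.1 CPM in control and 834, 690.3 and 839 CPM in knockout, and fell by 0.54 on the log2 scale (SE 0.08, adjusted p = 0.01). The call was lost without control replicate 3 (adjusted p = 0.0517) and without the mean-variance trend (0.282). Arrdc4, its paralog, measured 112, 100.5 and 102 CPM in control and 70.8, 71.2 and 69.3 CPM in knockout. Its log2 difference of -0.57 (SE 0.11, adjusted p = 0.0582) missed the threshold and passed it in 7 of 16 alternatives, with adjusted p of 0.0342 to 0.223. Both genes are known targets of the glucose-sensing factors MondoA and ChREBP, encoded by Mlxip and Mlxipl. Mlxip, looked up after the values of its targets were seen, had a log2 difference of 0.12 (adjusted p = 0.74), and Mlxipl was under the filter. Immediate early genes were lower in the same 3 libraries (8 called of 9 tested), and their part in these differences was not tested. These genes come from a list of 21 oxygen-sensing and glucose-sensing genes, of which 19 were tested, 9 had positive values and 1 was called. In it Meis1, a stem cell factor reported to drive Hif1a, measured 500, 521 and 489 CPM in control and 438, 412 and 455 CPM in knockout (-0.21, adjusted p = 0.283).

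The windows before the start sites of Txnip and Arrdc4 are shown for these paralogs, with the same cores in capitals.
Txnip, chr3:96557707-96557956, plus strand: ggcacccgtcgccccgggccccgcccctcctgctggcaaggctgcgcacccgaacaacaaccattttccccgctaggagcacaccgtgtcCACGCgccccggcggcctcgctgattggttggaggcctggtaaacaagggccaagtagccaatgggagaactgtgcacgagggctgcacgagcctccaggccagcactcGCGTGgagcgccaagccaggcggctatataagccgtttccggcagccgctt
Arrdc4, chr7:68749239-68749488, minus strand: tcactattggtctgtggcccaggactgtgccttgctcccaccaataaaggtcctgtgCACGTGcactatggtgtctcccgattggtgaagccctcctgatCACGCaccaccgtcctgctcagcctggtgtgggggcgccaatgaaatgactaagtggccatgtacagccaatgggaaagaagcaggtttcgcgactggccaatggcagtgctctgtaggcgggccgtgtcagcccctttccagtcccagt

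Both windows held a hypoxia core, where GCGTG alone was in 44.0% of the windows of genes tested. The window of Fbp1, the other called gene, held 0 cores. Arrdc4 held an E-box beginning 193 bases before the start and CACGC at 150 bases, and Txnip held CACGC at 160 and GCGTG at 51 bases. The E-box was present in 14.4% of windows of the other pathway genes, to which Txnip and Arrdc4 belong. It was in 12.5% of member windows, 8.2% of those of genes tested and 6.0% of all windows. Only these cores and the exact sequence CACGTG were searched for. The windows may hold other sites, such as imperfect E-boxes, that are not in capitals.

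Neighbouring branches gave no calls. Of 11 pentose phosphate genes 10 were tested and 7 had positive values. H6pd and Pgd, both NADPH-producing dehydrogenases, had groups that did not overlap, 2 of 10 genes, where 16.5% of all genes tested did so. G6pdx, a further NADPH-producing dehydrogenase, overlapped (log2 difference 0.11). H6pd, the enzyme of the endoplasmic reticulum, measured 18.4, 26.7 and 35.9 CPM in control and 57.8, 42.3 and 46.8 CPM in knockout (log2 difference 0.90, adjusted p = 0.208). Pgd, phosphogluconate dehydrogenase, measured 73.2, 89.9 and 93.6 CPM in control and 119.8, 105 and 120.4 CPM in knockout (0.43, adjusted p = 0.264), while Taldo1, transaldolase, had a difference of -0.13. Of 15 further genes of pyruvate use all were tested, 9 had positive values and 0 were called. Pcx, pyruvate carboxylase, had the smallest p with a difference of -0.58 (adjusted p = 0.53), ahead of Pdp1, a pyruvate dehydrogenase phosphatase (0.28), and Gpt, alanine aminotransferase (-0.58, or -0.08 without knockout replicate 1).

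As a whole, the members took up 0.745%, 0.734% and 0.792% of control reads, and 0.774%, 0.748% and 0.757% of knockout reads, which overlapped. Control replicate 3 was the highest of the 6 libraries for 14 of 42 members and the lowest for 2. Control replicate 2 was the highest for 3 and the lowest for 13.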

How the data were processed

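RNA-seq of 6 LT-HSC libraries was analysed. The submitters' processing notes list HISAT2, featureCounts, FastQC and limma, with mm10 as the build. Their versions, the annotation, the strand setting and the treatment of reads with several matches were not given in the sources used here. Values deposited by the authors are log2, of the form log2 CPM with 0.5 added to the reads. Undoing that form gave whole reads for 100.0% of values (tolerance 0.01), 36747729 to 43743795 reads per library, and CPM in the text are these reads over the effective library size (totals were 0.9959 to 1.0042 of it). Reads carry no molecular identifiers, so depth covers counting error only. Symbols and coordinates came from RefSeq GRCm38.p6 (the mm10 assembly). It matched 25275 of 27179 gene IDs. Every column was mapped to a sample.

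Genes with a deposited value of at least log2 of 1 CPM in at least 3 libraries (13018) entered a limma 3.58.1 fit (R 4.3.3, eBayes with trend, no block), with Benjamini-Hochberg adjustment and a threshold of 0.05. Members, gene lists and tests were chosen with earlier results of these data known. Named are all members, called genes of 5 lists of other pathway genes, and up to 3 genes per list by smallest p. A few other genes were named after their values were seen. Exon lengths are unions of GENCODE M21 basic exons, and shares within families carry no test. Library pairs of a group differed by more than sampling noise (chi-square per degree of freedom 42.4 to 59.1). Alternatives were other filters, normalizations, offsets and variance settings, voom, omission of each library in turn, and a replicate block. Figures used matplotlib 3.10.9 in Python 3.11.15.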

Additional observations from a re-analysis of the deposited data

How the results depend on the processing

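Counts of 0 members called higher and 0 called lower were obtained in all 16 alternatives, and the smallest adjusted p of any member was 0.215. Of 668 member values under the alternatives, 634 kept their direction and 34, from 15 members, changed sign, all from members with differences between -0.12 and 0.12. On leaving out each library in turn the log2 differences of these 15 ran over Slc2a1 (-0.09 to 0.20), Slc2a3 (-0.22 to 0.10), Hk1 (-0.21 to 0.12), Gpi1 (-0.02 to 0.13), Pfkfb3 (-0.06 to 0.32), Aldoc (-0.27 to 0.20), Gapdh (-0.03 to 0.01), Pgk1 (-0.01 to 0.14), Eno3 (-0.15 to 0.13), Pkm (-0.09 to 0.04), Pdk1 (-0.10 to 0.10), Hif1a (-0.05 to 0.14), Egln1 (-0.05 to 0.24), Vegfa (-0.30 to 0.05) and Ddit4 (-0.13 to 0.23). Aldoc was 0.00 with quantile normalization and -0.01 with voom, and Eno3 was -0.01 with quantile normalization. Of the 27 members that kept their sign throughout, 18 moved by over 1.5 times on leaving out a library. The median of the members ran from -0.041 to 0.014. The 2 other pathway genes called lower became 1 without the trend and 1 to 2 on leaving out a library (1 without control replicate 3), and 3 were called in 7 alternatives. Over all genes, 53 were higher and 38 lower. These became 83 higher without the filter, 105 higher and 59 lower with log2(CPM + 1), 15 lower without the trend, and 23 lower with a replicate block. On leaving out a library they ran from 20 to 64 higher and 19 to 28 lower; those higher moved by over 1.5 times without any of the knockout libraries (28, 22 and 20), and those lower without any library but control replicate 1. The causes were not tested. The block left the members at 0 calls and the pathway genes at 2, and same-numbered libraries did not deviate together (correlations -0.021 to 0.020), so the numbers do not pair them. Members of low level carry the widest intervals.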

Other observations

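Members varied between libraries to very different degrees. The highest library exceeded the lowest by 18.0-fold for Pdk4, 5.22-fold for Slc16a3, 4.20-fold for Ankrd37 and 3.58-fold for Eno2, but by only 1.06-fold for Gapdh and Eno1 and 1.12-fold for Ldha.

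Several well-known genes of the hypoxia response were not detected, or were found in both groups; these genes were picked after their values were seen. Adm and Epo had 0 reads in all 6 libraries, which allows up to 3 reads in each. Car9, the carbonic anhydrase often used as a marker of HIF activity, measured 30.1, 14.5 and 21.3 CPM in control and 24.7, 20.9 and 22.1 CPM in knockout (limma, adjusted p = 0.934). Of the other glycolytic isoenzymes, the germ-cell kinase Pgk2 and the muscle phosphatase Fbp2 had 0 reads throughout, whereas Fbp1 was detected in every library.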
